A study of Mus musculus with 12 samples.

Results

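The comparison described here set the T cell fraction of B16-F10 tumors against melanoma cells of tumors with the same label. It used 6 of the 12 libraries of the series, 3 per fraction, chosen by their labels and not by any measured value. The melanoma libraries came from B16-F10, a pigmented mouse melanoma line of C57BL/6 origin that carried the construct pLV[Exp]-Puro-EF1A>GCaMP6s, a lentiviral calcium reporter, and the cells were isolated by FACS for GCaMP6s. The T fraction libraries came from OT-1 CD8+ T cells (genotype C57BL/6J-OT-I) that had been activated with anti-CD3/anti-CD28 Dynabeads, given to tumor-bearing NOD-SCID mice, and recovered from the enzyme-digested tumor with CD8 antibody beads and a release buffer. The tumors of both groups were removed 2 days after the transfer. The OT-I receptor recognises an ovalbumin peptide, and the B16-F10 genotype on the labels has no ovalbumin, in contrast to the B16-F10-OVA tumors of the other 6 libraries. NOD-SCID hosts make almost no T or B cells of their own but keep vessels, stroma and myeloid cells. The labels give neither ages nor the mouse behind each library, so every p-value here measures only the spread between libraries, which may be technical. Cell isolation (FACS against beads) went with the fraction in every library, and its part in any difference cannot be told apart from that of the cell type.

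Cytotoxic CD8 T cells read peptides on MHC class I molecules through the T cell receptor and its CD3 chains, kill with granzymes and perforin, and secrete interferon gamma, which switches on guanylate-binding proteins, antigen-processing genes and chemokines in the cells around them. Melanocytes and pigmented melanoma cells make melanin in melanosomes with the enzymes Tyr, Tyrp1 and Dct on a fibre built from Pmel, and the transcription factors Mitf, Sox10 and Pax3 keep that program on. A solid tumor also holds endothelial cells, the pericytes that wrap them, matrix-producing cells and macrophages. A bulk library reports the summed RNA of whatever cells were collected.

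The labelled identities were checked first with the genes that define each fraction. Levels are CPM, a gene's counts scaled to 1000000 counts of the library, listed in the order of replicates 1 to 3. Cd8a (ENSMUSG00000053977), a chain of the CD8 co-receptor, was 119, 120.1 and 117 CPM in the T fraction libraries and 0.0940, 0 and 0.0528 CPM in the melanoma libraries. Cd3e, a signalling chain of the T cell receptor, was 61.9, 60.9 and 59.9 CPM in the T fraction libraries and 0 CPM in all 3 melanoma libraries. Ptprc, the CD45 phosphatase of all leukocytes, was 374, 376 and 375 CPM in the T fraction libraries and 0.376, 0.345 and 0.475 CPM in the melanoma libraries. All 3 leukocyte genes were therefore high in every T fraction library and at or near 0 in every melanoma library, with no overlap. Pmel (ENSMUSG00000025359), the fibre protein of the melanosome, was 32.3, 31.0 and 31.0 CPM in the T fraction libraries and 5358, 5354 and 5372 CPM in the melanoma libraries. Tyrp1, an enzyme of melanin synthesis, stood at 78.5, 81.1 and 81.9 CPM in the T fraction libraries and 6660, 6724 and 6703 CPM in the melanoma libraries. Dct, the enzyme dopachrome tautomerase, stood at 85.5, 89.7 and 90.3 CPM in the T fraction libraries and 6712, 6684 and 6771 CPM in the melanoma libraries. The pigment genes were thus high in every melanoma library, and they were still measurable, at far lower levels, in every T fraction library. Xist, the RNA of the inactive X chromosome in female cells, was 525, 552 and 532 CPM in the T fraction libraries and 0.893, 0.689 and 0.686 CPM in the melanoma libraries. The fractions did not overlap for it.

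Receptor segments gave a further check of the OT-I label, chosen after their values were seen. The OT-I receptor is known to use a Trav14 and a Trbv12 family segment. Trbv12-1 made up 99.8%, 99.9% and 99.8% of all Trbv counts in the T fraction libraries, which held 2038, 1792 and 1653 such counts. Trav14d-1 made up 96.3%, 95.3% and 96.1% of the Trav counts there, on 960, 895 and 769 counts. The near-identical copies of the Trav14 family could not be separated with certainty by read counting. In the melanoma libraries no Trbv count was seen, and the 13, 9 and 9 Trav counts were mostly of Trav4-4-dv10. The receptor segments counted in the T fraction were therefore almost all of 1 kind per chain.

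Besides T cells, the CD8 bead fraction held RNA of the tumor vessels and matrix. The 14 endothelial genes listed summed to 13206 ± 35.3 CPM in the T fraction (SD, n = 3) and 338 ± 1.56 CPM in the melanoma libraries. The 20 genes of the T cell receptor complex and CD8 summed to 2053 ± 7.18 and 7.86 ± 0.565 CPM. The 12 pericyte and smooth muscle genes summed to 4894 ± 15.8 and 84.6 ± 5.71 CPM. The data thus go partly against the label of CD8+ T cells, since vessel and matrix genes took more of the counts than the receptor list did, and the name "T fraction" below means the cells that the beads brought down. A higher level of a gene in it can come from more cells of a type or from more RNA per cell, which cannot be told apart in bulk libraries. For comparison, the endothelial genes summed to 5395 ± 40.0 CPM in the melanoma libraries of the OVA label.

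**Figure D1:**
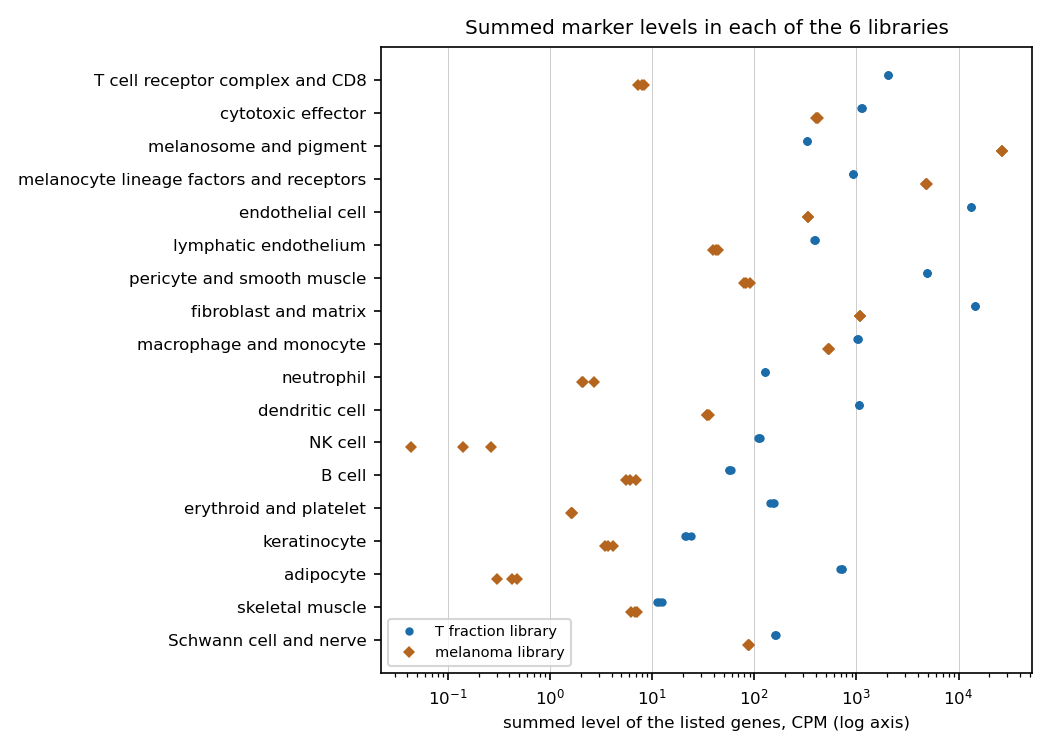
Summed level of each marker list (CPM, log axis) in the 6 libraries, with circles for the 3 T fraction libraries and diamonds for the 3 melanoma libraries. The libraries of a fraction lie on top of each other for most lists. Among the lists plotted, the pigment list has the highest melanoma sum at 26892 CPM, and the endothelial and matrix lists have the highest T fraction sums at 13206 and 14497 CPM.

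Library totals were 15494683 to 19296278 counts in the T fraction and 18948947 to 23213586 in the melanoma libraries. Mitochondrial transcripts took 3.22% to 3.37% and 1.71% to 1.80% of the counts. Replicates differed by more than counting noise in every pair, with a chi-square per degree of freedom of 1.56 to 1.77 over the 6 pairs within these groups.

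Nearly every gene differed between the fractions. Of 17099 genes tested, edgeR's quasi-likelihood test with Benjamini-Hochberg adjustment at 0.05 called 14989 (87.7%), of which 7757 were higher in the T fraction (45.4%) and 7232 lower (42.3%), and the libraries of the fractions did not overlap for 15177 genes (88.8%). A stricter call is therefore used below: edgeR's glmTreat test against a 2-fold change, which called 4808 genes higher (28.1%) and 3083 lower (18.0%). Every count of list members below has to be read against these shares. Large differences lay mostly on the T fraction side. By fitted value, 2072 of the genes called beyond 2-fold were past 32-fold higher and 284 past 32-fold lower, and 893 and 32 were past 256-fold. No count was seen in the melanoma libraries for 563 of the genes called higher, and none in the T fraction for 52 of those called lower. Fold changes are fitted log2 values after TMM scaling with their standard errors (SE). TMM sets the median gene at 0.06, whereas scaling to library totals sets it at -0.22, so a gene slightly above 0 with TMM can lie below 0 with library totals. The share of higher genes among those called beyond 2-fold was 60.9% with TMM and 51.1% with totals. Among calls of any size it was 51.75% with TMM and 43.61% with totals, so the larger side depended on the scaling. Where a gene had 0 counts in a fraction, the fold is a lower bound against 3 counts over that fraction. Where it had 1 to 3 counts there, the ratio is given with a counting interval.

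**Figure D2:**
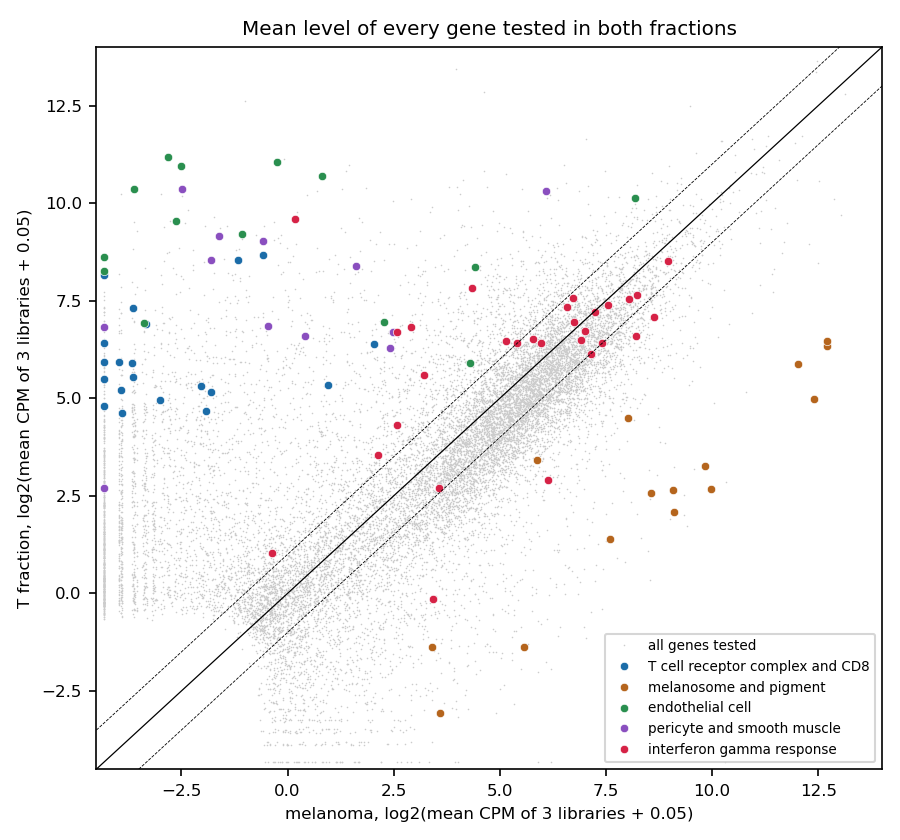
Mean level of the 17099 genes tested in the T fraction (vertical) against melanoma (horizontal), each as log2(CPM + 0.05) of 3 libraries, with 5 gene lists in colour. The solid line marks equal levels and the dashed lines a 2-fold difference; pigment genes lie far below it, T cell, endothelial and pericyte genes far above, and many interferon gamma response genes near it.

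All 20 genes of the receptor complex list passed the 2-fold test as higher in the T fraction, with a median log2 fold change of 10.70 (10.24 with genes at 0 set to their bound), where the median of all genes tested was 0.06. This direction follows from the selection of the cells. Trac, the constant part of the receptor alpha chain, was 86.5, 80.6 and 86.9 CPM in the T fraction libraries and 0 CPM in all 3 melanoma libraries, at least 1790-fold higher in the T fraction. Trbc2, a constant part of the beta chain, was 287, 290.4 and 285 CPM in the T fraction libraries and 0 CPM in all 3 melanoma libraries, at least 6084-fold higher. It shares sequence with Trbc1, whose level was 59.8 ± 2.33 and 0.0287 ± 0.0497 CPM, so the split of reads between the copies is uncertain. Cd8b1, the beta chain of the co-receptor, was 36.3, 37.0 and 34.5 CPM in the T fraction libraries and 0.0470, 0.345 and 0.317 CPM in the melanoma libraries (log2 fold change 7.49, SE 0.150, adjusted p = 1.8e-24, glmTreat). Lck, the kinase that starts receptor signalling, was 84.3 ± 3.55 CPM in the T fraction and 4.05 ± 0.334 CPM in melanoma (log2 fold change 4.66, SE 0.0646). These receptor genes did not overlap between the fractions in any library. Lck and the adaptor Lat (1.89 ± 0.311 CPM in melanoma) were the members with most RNA in the melanoma libraries, and the remaining members were below 1 CPM there.

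Killing genes were higher in the T fraction with a pair of exceptions. Of 15 cytotoxic genes tested, 13 were higher in the T fraction beyond 2-fold and none lower, with a median log2 fold change of 8.53. Gzmb, a serine protease that triggers death of the target cell, was 126, 131 and 132 CPM in the T fraction libraries and 0.0470, 0.0862 and 0.158 CPM in the melanoma libraries (log2 fold change 10.60, SE 0.0984, adjusted p = 1.34e-32). Gzma was 41.1, 39.3 and 39.0 CPM in the T fraction libraries and 0.0470, 0.0431 and 0 CPM in the melanoma libraries, a ratio of 1265 (95% Clopper-Pearson interval 349.7 to 10450). Prf1, the pore that lets granzymes into the target, was 4.40, 4.07 and 4.13 CPM in the T fraction libraries and 0, 0 and 0.0528 CPM in the melanoma libraries, a ratio of 267 (95% Clopper-Pearson interval 47.4 to 10597). Perforin RNA thus stood at a few CPM in all 3 T fraction libraries, with no overlap between the fractions for any of the 3. Fasl, the ligand of the Fas death receptor, was 16.2 ± 1.05 CPM in the T fraction and 0.0300 ± 0.0261 CPM in melanoma. The members not called were Lamp1, a lysosome protein made by most cells (381 ± 6.67 and 401 ± 5.63 CPM), and Gzmm (1.67 ± 0.123 and 3.07 ± 0.591 CPM). The direction of Lamp1 depended on the scaling, with a log2 fold change of 0.21 under TMM and -0.07 under library totals.

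Every one of the 12 cytokine and chemokine genes tested was higher in the T fraction beyond 2-fold, with a median of 6.90. Ifng, the gene of interferon gamma, was 13.7, 12.2 and 12.5 CPM in the T fraction libraries and 0 CPM in all 3 melanoma libraries, at least 271-fold higher in the T fraction. Xcl1, a chemokine that attracts cross-presenting dendritic cells, was 18.0, 17.6 and 21.6 CPM in the T fraction libraries and 0 CPM in all 3 melanoma libraries, at least 400.0-fold higher. None of the melanoma libraries held a count of either. Tnf, an inflammatory cytokine, was 16.3, 17.3 and 14.7 CPM in the T fraction libraries and 0.141, 0.172 and 0.264 CPM in the melanoma libraries (log2 fold change 6.65, SE 0.189, adjusted p = 1.03e-20). Il2, the growth factor of activated T cells, had no count in any of the 6 libraries. The chemokines Ccl3, Ccl4 and Ccl5, which draw in further T cells and myeloid cells, stood at 41.1 ± 2.37, 17.9 ± 1.17 and 51.8 ± 1.86 CPM in the T fraction, against 0.500 ± 0.0927, 0.211 ± 0.0958 and 1.45 ± 0.169 CPM in melanoma. Macrophages also make these 3 chemokines and Tnf, and macrophage genes were higher in the same libraries (given below). Their part in these levels was not tested.

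All 10 inhibitory receptor genes were higher in the T fraction, with a median of 8.37. Pdcd1, which encodes PD-1, was 76.2, 77.7 and 78.5 CPM in the T fraction libraries and 0 CPM in all 3 melanoma libraries, at least 1636-fold higher. Ctla4, the competitor of Cd28 for its ligands, was 155, 155 and 156 CPM in the T fraction libraries and 0, 0.0431 and 0 CPM in the melanoma libraries, a ratio of 9842 (95% Clopper-Pearson interval 1766 to 388805). Lag3, which binds MHC class II, was 37.8, 39.6 and 34.7 CPM in the T fraction libraries and 3.29, 3.83 and 3.27 CPM in the melanoma libraries (log2 fold change 3.71, SE 0.0850, adjusted p = 4.58e-22). The fractions did not overlap for any of these receptors. Havcr2 (TIM-3) stood at 18.9 ± 1.25 and 0.903 ± 0.179 CPM and Tigit at 22.991 ± 0.445 and 0.0300 ± 0.0261 CPM. Lag3 was the only member above 1 CPM in the melanoma mean. Entpd1 (272 ± 3.53 CPM) and Vsir (67.1 ± 4.01 CPM) are known to be made by endothelial or myeloid cells as well.

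Of 16 costimulatory and cytokine receptor genes 15 were higher in the T fraction and none lower, with a median of 8.82. Il2ra, the high-affinity interleukin-2 receptor chain, was 80.7, 82.2 and 80.6 CPM in the T fraction libraries and 0, 0.172 and 0.422 CPM in the melanoma libraries (log2 fold change 8.98, SE 0.130). Cd28 was 51.1 ± 1.77 CPM and Tnfrsf9 (4-1BB) 55.9 ± 1.97 CPM in the T fraction, against 0.0620 ± 0.0211 and 0.979 ± 0.273 CPM in melanoma. Il7r, the receptor for the survival cytokine interleukin-7, was 39.6 ± 0.569 and 0.0665 ± 0.0579 CPM. The member not called was Il12rb1 (8.33 ± 0.957 and 12.2 ± 0.495 CPM).

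Among T cell transcription factors 15 of 20 were higher beyond 2-fold, 1 was lower (3 with library totals) and 4 were not called, with a median of 3.501. Eomes, a factor of effector and memory CD8 cells, was 27.7, 28.1 and 27.5 CPM in the T fraction libraries and 0.0940, 0.0431 and 0 CPM in the melanoma libraries, a ratio of 587 (95% Clopper-Pearson interval 201 to 2851). Tcf7, which marks T cells that keep the capacity to renew, was 61.5, 62.0 and 62.7 CPM in the T fraction libraries and 10.5, 10.3 and 9.18 CPM in the melanoma libraries (log2 fold change 2.91, SE 0.0561, adjusted p = 4.37e-23). Both factors were higher in every T fraction library, although Tcf7 RNA was present in the melanoma libraries too. Tbx21 (T-bet) was 5.64 ± 0.559 CPM and Tox 3.42 ± 0.167 CPM in the T fraction, against 0.0933 ± 0.0446 and 0.0157 ± 0.0271 CPM. Runx3, which holds the CD8 fate, was 63.8 ± 2.07 and 0.0470 ± 0.0814 CPM. Nfatc2, a calcium-activated factor, was the lower member at 27.8, 24.7 and 24.2 CPM in the T fraction libraries and 95.2, 103 and 98.3 CPM in the melanoma libraries (log2 fold change -1.66, SE 0.0464, adjusted p = 5.94e-14). Id2 was 47.4 ± 1.34 CPM against 119 ± 4.52 CPM and missed the call (log2 fold change -1.04, adjusted p = 0.0939). It was called lower with library totals, without the filter on low counts, with all 12 libraries in the fit, and without melanoma replicate 2 or 3 (-1.07 to -1.33).

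Homing genes were higher in the T fraction for 13 of 15 members and lower for 2. Cxcr3, the receptor for the interferon-induced chemokines Cxcl9 and Cxcl10, was 23.7, 21.7 and 23.2 CPM in the T fraction libraries and 4.47, 5.47 and 4.12 CPM in the melanoma libraries (log2 fold change 2.56, SE 0.0917). Cxcr6 was 58.7 ± 1.68 CPM and Cd69, a retention receptor, 49.4 ± 1.21 CPM, against 0.0431 ± 0.0746 and 0.0495 ± 0.0531 CPM. The egress and lymph node genes S1pr1 and Ccr7 stood at 685 ± 2.67 and 210.1 ± 4.95 CPM in the T fraction and below 1 CPM in melanoma. S1pr1 is also an endothelial gene and Ccr7 a gene of mature dendritic cells, and both cell types' markers were higher in the same libraries. The lower members were both adhesion genes. Cd44, the hyaluronan receptor, was 189.7, 194 and 189.7 CPM in the T fraction libraries and 731, 732 and 721 CPM in the melanoma libraries (log2 fold change -1.65, SE 0.0191, adjusted p = 3.14e-23). Itga4, an integrin chain that binds Vcam1, was 42.2 ± 2.17 and 113 ± 1.73 CPM (log2 fold change -1.14, SE 0.0356), and DESeq2 did not call it (-1.08).

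The pigment program was lower in the T fraction throughout. All 15 melanosome and pigment genes were lower in the T fraction beyond 2-fold, with a median log2 fold change of -6.09, and their summed level was 327 ± 1.95 CPM against 26892 ± 33.9 CPM. The log2 fold change was -7.13 for Pmel (SE 0.0221, adjusted p = 1.11e-43), -6.09 for Tyrp1 (SE 0.0197) and -5.96 for Dct (SE 0.0198). Tyr, the rate-limiting enzyme of melanin synthesis, was 9.38, 9.38 and 9.75 CPM in the T fraction libraries and 920.4, 920.5 and 894 CPM in the melanoma libraries (log2 fold change -6.30, SE 0.0334). Mlana, the melanoma antigen MART-1, was 6.22, 5.48 and 5.87 CPM in the T fraction libraries and 373, 379 and 383 CPM in the melanoma libraries (log2 fold change -5.72, SE 0.0410). Slc45a2, a melanosome transporter, was 6.39 ± 0.122 and 997 ± 8.38 CPM, and Gpnmb, a melanosome glycoprotein, 58.5 ± 0.731 and 4152 ± 10.9 CPM. The RNA left in the T fraction differed between members. Over the 12 members with at least 50 CPM in melanoma the T fraction level was 0.586% (Pmel) to 18.0% (Mreg) of the melanoma level, with a median of 1.26%. Rab27a, a vesicle-transport GTPase that T cells also use to release granules, was at 8.60% (23.3, 22.035 and 21.9 CPM in the T fraction libraries and 261, 259 and 261 CPM in the melanoma libraries). Mreg, a regulator of melanosome transfer, was 10.6 ± 1.23 and 58.7 ± 1.82 CPM.

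Of the 15 lineage factors and receptors, 13 were lower in the T fraction and 2 higher. Mitf, the master regulator of the melanocyte, was 9.17, 8.53 and 9.42 CPM in the T fraction libraries and 767, 773 and 758 CPM in the melanoma libraries (log2 fold change -6.12, SE 0.0337, adjusted p = 7.93e-38). Sox10, a neural crest factor, was 3.42, 3.56 and 4.07 CPM in the T fraction libraries and 510.2, 518 and 519 CPM in the melanoma libraries (log2 fold change -6.85, SE 0.0420). Neither gene overlapped between the fractions. Pax3, an early lineage factor, was 2.07 ± 0.251 CPM in the T fraction and 359 ± 1.27 CPM in melanoma (log2 fold change -7.16, SE 0.0496). Ppargc1a, a coactivator of mitochondrial genes and a known Mitf target, was 3.52, 3.96 and 4.45 CPM in the T fraction libraries and 649.9, 655 and 627 CPM in the melanoma libraries (log2 fold change -7.06, SE 0.0444). Met, the receptor of hepatocyte growth factor, was 35.9, 33.5 and 37.0 CPM in the T fraction libraries and 1770, 1786 and 1753 CPM in the melanoma libraries (log2 fold change -5.36, SE 0.0257). A pair of receptors went the other way. Ednrb, the endothelin receptor of the melanoblast and also of vessel cells, was 759, 756 and 739 CPM in the T fraction libraries and 0.188, 0 and 0.106 CPM in the melanoma libraries (log2 fold change 13.14, SE 0.0659). Kit, the stem cell factor receptor, was 101, 107 and 109 CPM in the T fraction libraries and 11.9, 12.1 and 11.9 CPM in the melanoma libraries (log2 fold change 3.42, SE 0.0469). Ednrb was thus at or near 0 in the melanoma libraries. Apoe, on the macrophage list, and Fbln1, on the matrix list, were likewise more abundant in melanoma, at 69.3 ± 2.47 against 518 ± 4.56 CPM and 14.4 ± 1.43 against 128 ± 0.746 CPM.

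Because Mitf binds the letters CATGTG within a motif called the M-box, these letters are shown where they lie before the start sites of pigment genes. RefSeq promoter windows (build GRCm38.p6, while the counts were made on GRCm39) were searched over the 250 bases before each start for CATGTG on either strand, which reads CACATG when it lies on the other strand. Of the 15 pigment genes 10 had a window, and 6 of these (60.0%) held the letters: Tyr, Tyrp1, Dct, Trpm1, Slc24a5 and Oca2. The stretches around the matches in 5 of them, and in Tspan10 from the lineage list, are shown because these genes lie at the melanoma end of the comparison. They lie at chr7:87493513-87493563 (minus strand) for Tyr, chr4:80834137-80834202 (plus strand) for Tyrp1, chr14:118052443-118052496 (minus strand) for Dct's distal match and chr14:118052361-118052426 (minus strand) for Dct's proximal match. The others lie at chr7:64153664-64153729 (plus strand) for Trpm1, chr2:125068084-125068126 (plus strand) for Slc24a5 and chr11:120442580-120442630 (plus strand) for Tspan10. Each is printed 5′ to 3′ on the gene's strand with the match in capitals.
Tyr: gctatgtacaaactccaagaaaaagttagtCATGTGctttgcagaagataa
Tyrp1: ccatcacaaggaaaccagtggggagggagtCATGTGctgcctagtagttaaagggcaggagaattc
Dct, distal match: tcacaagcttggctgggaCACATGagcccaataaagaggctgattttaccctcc
Dct, proximal match: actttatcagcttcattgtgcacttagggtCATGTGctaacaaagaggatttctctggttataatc
Trpm1: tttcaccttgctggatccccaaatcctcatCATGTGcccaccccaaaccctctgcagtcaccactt
Slc24a5: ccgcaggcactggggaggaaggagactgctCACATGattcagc
Tspan10: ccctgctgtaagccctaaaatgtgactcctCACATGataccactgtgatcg

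The matches began 21 bases before the start in Tyr, 46 in Tyrp1, 232 and 150 in Dct, 141 in Trpm1, 13 in Slc24a5 and 21 in Tspan10. A gene was counted if any of its windows held the letters, and another window of Trpm1 held none. Among all genes tested with a window the share holding the letters was 9.75% (1107 of 11349), and among all genes with a RefSeq window it was 13.8%. Genes lower in the T fraction beyond 2-fold held them in 11.2% of cases (241 of 2147) and genes higher in 11.5% (348 of 3020), both close to the share of all genes tested. Among genes lower past 32-fold the share was 23.2% (39 of 168), and among the lineage list it was 3 of 10. A match of letters describes the sequence and is no evidence of binding. Every gene with a printed window was lower in the T fraction. Trpm1, a melanocyte cation channel, was 6.12, 6.33 and 6.13 CPM in the T fraction libraries and 541, 549 and 539.6 CPM in the melanoma libraries (log2 fold change -6.17, SE 0.0372). Slc24a5, a melanosome ion exchanger, was 4.21 ± 0.0755 and 548 ± 9.20 CPM (log2 fold change -6.74, SE 0.0416), and Tspan10, a tetraspanin, 1.22 ± 0.409 and 372 ± 4.13 CPM (log2 fold change -7.94, SE 0.0596).

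Blood vessel genes were higher in the T fraction. All 14 endothelial genes were higher there, with a median log2 fold change of 11.52. Cdh5, the cadherin of endothelial junctions, was 1976, 1984 and 1966 CPM in the T fraction libraries and 0, 0.215 and 0.158 CPM in the melanoma libraries (log2 fold change 14.14, SE 0.0545, adjusted p = 6.88e-42). Flt1, a receptor of vascular endothelial growth factor, was 2336, 2347 and 2304 CPM in the T fraction libraries and 0.141, 0.0862 and 0.0528 CPM in the melanoma libraries (log2 fold change 14.77, SE 0.0475). Plvap, which forms the diaphragms of fenestrated endothelium, was 2102, 2105 and 2142 CPM in the T fraction libraries and 0.658, 1.25 and 0.475 CPM in the melanoma libraries (log2 fold change 11.61, SE 0.0465). All 3 genes were therefore nearly absent from the sorted melanoma cells and high in every T fraction library. Eng, a TGF-beta co-receptor, was also present in melanoma, at 1143, 1127 and 1122 CPM in the T fraction libraries and 289, 291 and 286 CPM in the melanoma libraries (log2 fold change 2.25, SE 0.0175). Vwf, a clotting protein of endothelium, was 59.9 ± 1.06 and 19.6 ± 1.99 CPM (log2 fold change 1.90, SE 0.0538). Of 7 lymphatic genes 5 were higher and 1 lower (2 with library totals), among them Lyve1 at 49.0 ± 1.23 and 0.0320 ± 0.0281 CPM. Prox1, the factor that sets lymphatic identity, was not called (5.49 ± 0.559 and 13.0 ± 0.916 CPM), except as lower with library totals (-1.26 on the log2 scale), and Pdpn was lower (3.94 ± 0.607 and 25.7 ± 1.13 CPM, log2 fold change -2.43, SE 0.0948).

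Pericyte genes were also higher in the T fraction, as were most fibroblast and matrix genes, some of them at low levels. All 12 pericyte and smooth muscle genes were higher in the T fraction, with a median of 8.85 (7.403 at the bound). Rgs5, a regulator of G-protein signalling that marks pericytes, was 1308, 1306 and 1308 CPM in the T fraction libraries and 0.0470, 0.129 and 0.211 CPM in the melanoma libraries (log2 fold change 13.55, SE 0.0516, adjusted p = 6.88e-42). The melanoma libraries held almost none of it. Abcc9, a subunit of the pericyte potassium channel, was 567 ± 2.03 and 0.275 ± 0.128 CPM. Kcnj8, the partner of Abcc9, was 112 ± 1.04 CPM in the T fraction and had no count in melanoma, at least 2377-fold higher. On the fibroblast and matrix list 17 of 18 genes were higher, and the list summed to 14497 ± 55.9 CPM in the T fraction and 1082 ± 8.62 CPM in melanoma. Col1a1, a chain of fibrillar collagen, was 1829, 1836 and 1799 CPM in the T fraction libraries and 22.9, 26.2 and 24.6 CPM in the melanoma libraries (log2 fold change 6.49, SE 0.0271). Col3a1 was 1733 ± 11.1 and 35.5 ± 2.19 CPM. The members Dcn, Lum, Dpt and Pdgfra were higher at small levels. Dcn, a matrix proteoglycan, was 12.2, 9.44 and 10.0 CPM in the T fraction libraries and 0.940, 1.94 and 1.58 CPM in the melanoma libraries (log2 fold change 3.10, SE 0.169, adjusted p = 9.95e-13). Lum was 2.02 ± 0.431 and 0.325 ± 0.179 CPM, Dpt was 2.59 ± 0.229 and 0.333 ± 0.206 CPM, and Pdgfra was 3.55 ± 0.161 and 0.901 ± 0.0844 CPM. Collagens are known to be made by pericytes and endothelium as well as by fibroblasts, and the source of this RNA was not tested.

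Myeloid genes were higher in the T fraction too. Of 18 macrophage and monocyte genes 17 were higher, with Apoe as the exception given above, and the median was 6.29. Lyz2, a lysozyme, was 113, 115 and 119 CPM in the T fraction libraries and 1.504, 1.72 and 1.95 CPM in the melanoma libraries (log2 fold change 6.35, SE 0.0661). C1qa, a complement subunit of tissue macrophages, was 36.5 ± 1.16 and 0.209 ± 0.111 CPM and Adgre1 (F4/80) 15.4 ± 1.44 and 0.333 ± 0.0341 CPM. All 12 dendritic cell genes were higher, among them Siglech, a receptor of plasmacytoid dendritic cells, at 47.3 ± 1.81 CPM with no count in melanoma, and Flt3 at 21.3 ± 1.66 CPM with no count in melanoma. All 8 neutrophil genes tested were higher, with S100a8 at 7.89 ± 0.516 and 0.0607 ± 0.0650 CPM. Red cell and platelet genes were higher in 8 of 8 cases, with Hbb-bs at 53.8 ± 2.08 and 0.0144 ± 0.0249 CPM, where globin copies may share reads.

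Among other cell types, defining genes of NK and fat cells were at or near 0, whereas Cd4, Foxp3 and B cell genes were measurable. Ncr1 and Klrb1c, which define NK cells, stood at 0.0403 ± 0.0352 and 0.165 ± 0.170 CPM in the T fraction, and Klrd1 and Klrk1, shared with activated CD8 T cells, at 16.6 ± 0.719 and 17.5 ± 2.53 CPM. Of 4 B cell genes tested 2 were higher in the T fraction and 1 lower. Cd4 was 14.5 ± 0.741 CPM and Foxp3, the regulatory T cell factor, 3.68 ± 0.550 CPM in the T fraction, and 4 of the 5 genes tested on that list were higher there. The fat cell genes Adipoq and Plin1 were below 1 CPM in both fractions, while Fabp4, also an endothelial gene, was 675 ± 13.9 and 0.0841 ± 0.0796 CPM. The muscle genes summed to 11.7 ± 0.773 and 6.67 ± 0.414 CPM, and the keratinocyte genes to 22.3 ± 1.57 and 3.79 ± 0.354 CPM. Schwann cell genes summed to 161 ± 1.401 and 88.3 ± 0.902 CPM, with 4 of 7 higher and 2 lower. Of all genes tested 28.1% were higher and 18.0% lower.

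Interferon gamma was transcribed in the T fraction, and the genes of its response list were called in both directions. Of 29 response genes tested, 12 were higher in the T fraction beyond 2-fold, 4 were lower and 13 were not called. Of all genes tested, 28.1% were higher and 18.0% lower, so the share of lower members did not exceed that of all genes. The median of the list was 0.49 beside 0.06 over all genes. Irf1, an early induced transcription factor, was 358, 375 and 367 CPM in the T fraction libraries and 485, 503 and 501 CPM in the melanoma libraries (log2 fold change -0.15, adjusted p = 1). Gbp2, a guanylate-binding protein that attacks pathogen vacuoles, was 185, 188 and 187 CPM in the T fraction libraries and 259.7, 267 and 259 CPM in the melanoma libraries (-0.21, adjusted p = 1). The melanoma libraries had the higher CPM of both genes without overlap, but the difference did not pass the 2-fold test. For both genes the direction was the same with TMM and with library totals. The immunity-related GTPases Igtp and Irgm1 did pass. Igtp was 98.7, 96.7 and 93.6 CPM in the T fraction libraries and 291, 297 and 299.5 CPM in the melanoma libraries (log2 fold change -1.33, SE 0.0249, adjusted p = 1.75e-13). Irgm1 was 136 ± 1.33 and 398 ± 4.35 CPM (log2 fold change -1.27, SE 0.0215). Gbp10 and Gbp11 were lower as well, at 7.39 ± 1.49 against 69.9 ± 1.27 CPM and 0.851 ± 0.251 against 10.7 ± 0.343 CPM. Members of these families share sequence, so the levels of single copies are uncertain. Tgtp2 stood at 0.13 on the log2 scale with TMM and -0.16 with library totals.

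The response genes that were higher in the T fraction included chemokines and adhesion genes. Cxcl9, a T cell attractant, was 116, 112 and 110.1 CPM in the T fraction libraries and 7.61, 7.88 and 7.02 CPM in the melanoma libraries (log2 fold change 4.19, SE 0.0503, adjusted p = 4.61e-29). Cxcl10, which binds the same receptor, was 160.4, 166 and 158 CPM in the T fraction libraries and 94.8, 94.5 and 96.3 CPM in the melanoma libraries (log2 fold change 1.05, SE 0.0259, adjusted p = 0.0194). Its log2 fold change lay close to the 2-fold limit and the call was lost without T fraction replicate 2 (1.03) and without any of the 3 melanoma libraries (1.02 to 1.03). It was also lost with library totals (0.77), no filter on low counts (0.97), all 12 libraries in the fit (1.01) and limma-voom (1.05). Icam1, an adhesion molecule that is also induced by NF-kB, was 756, 772 and 775 CPM in the T fraction libraries and 1.22, 0.775 and 1.27 CPM in the melanoma libraries (log2 fold change 9.76, SE 0.0456). All 3 genes were higher in every T fraction library. Gbp9 was 104 ± 1.80 and 5.94 ± 0.140 CPM, Gbp5 48.6 ± 0.925 and 9.20 ± 0.988 CPM, and the feedback inhibitor Socs1 19.8 ± 1.38 and 5.90 ± 0.609 CPM. Cd274, the PD-L1 gene, was not called, at 93.2, 88.6 and 88.1 CPM in the T fraction libraries and 117, 120.2 and 124 CPM in the melanoma libraries (-0.13, adjusted p = 1). On the type I interferon list 12 of 24 genes were higher and none lower, beside 28.1% and 18.0% of all genes. The median was 1.20. Irf7, an amplifier of that response, was 69.8, 66.3 and 69.7 CPM in the T fraction libraries and 1.74, 2.93 and 1.64 CPM in the melanoma libraries (log2 fold change 5.28, SE 0.0897), and Bst2 was 208 ± 2.17 and 63.8 ± 2.97 CPM.

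Antigen presentation genes were higher in the T fraction. Of 21 MHC class I genes 15 were higher in the T fraction and none lower, beside 28.1% and 18.0% of all genes. The median was 1.61. H2-K1, a class I heavy chain gene, was 1359, 1368 and 1359 CPM in the T fraction libraries and 26.5, 26.9 and 24.8 CPM in the melanoma libraries (log2 fold change 5.99, SE 0.0250, adjusted p = 8.54e-41). The OT-1 cells were C57BL/6J and the host mice NOD-SCID. Counts per gene do not separate the MHC alleles of these strains, so the levels do not show which allele was transcribed. H2-D1 was 2001, 2015 and 2013 CPM in the T fraction libraries and 90.7, 91.4 and 93.2 CPM in the melanoma libraries (log2 fold change 4.74, SE 0.0192). B2m, the light chain, was 1413, 1377 and 1415 CPM in the T fraction libraries and 309, 299 and 299 CPM in the melanoma libraries (log2 fold change 2.50, SE 0.0183). The heavy and light chains were therefore higher in the T fraction beyond 2-fold, in the same libraries in which Irf1 and Gbp2 were not called. H2-Q6 and H2-Q7, near-identical copies, were 447 ± 5.35 and 398 ± 2.77 CPM against 0.381 ± 0.209 and 1.05 ± 0.211 CPM. The peptide transporter Tap1 was 245, 242 and 240.0 CPM in the T fraction libraries and 77.7, 79.7 and 82.7 CPM in the melanoma libraries (log2 fold change 1.89, SE 0.0255). The immunoproteasome subunit Psmb8 was 118 ± 3.62 and 8.60 ± 0.904 CPM (log2 fold change 4.05, SE 0.0514). Nlrc5, the transactivator of class I genes, was 88.1 ± 4.45 and 35.2 ± 1.33 CPM (log2 fold change 1.61, SE 0.0414). The general folding factors Calr (865 ± 8.58 and 745 ± 2.96 CPM) and Pdia3 (618 ± 2.65 and 662 ± 7.74 CPM) were not called, and Pdia3 changed direction with the scaling (0.19 with TMM and -0.10 with totals on the log2 scale).

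For MHC class II, 8 of 11 genes were higher in the T fraction and none lower. H2-Aa, a class II chain, was 211, 207 and 215 CPM in the T fraction libraries and 12.2, 12.4 and 11.1 CPM in the melanoma libraries (log2 fold change 4.42, SE 0.0377). The invariant chain Cd74 was 335 ± 1.74 and 45.1 ± 1.46 CPM (log2 fold change 3.18, SE 0.0261). Ciita, the master regulator of class II, was not called, at 7.10, 5.71 and 6.65 CPM in the T fraction libraries and 11.8, 13.0 and 10.5 CPM in the melanoma libraries (-0.58, adjusted p = 1). Genes of professional presenting cells (Flt3, Itgax, C1qa) were higher in the same T fraction libraries, and their part in the class I and class II difference was not tested.

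**Figure D3:**
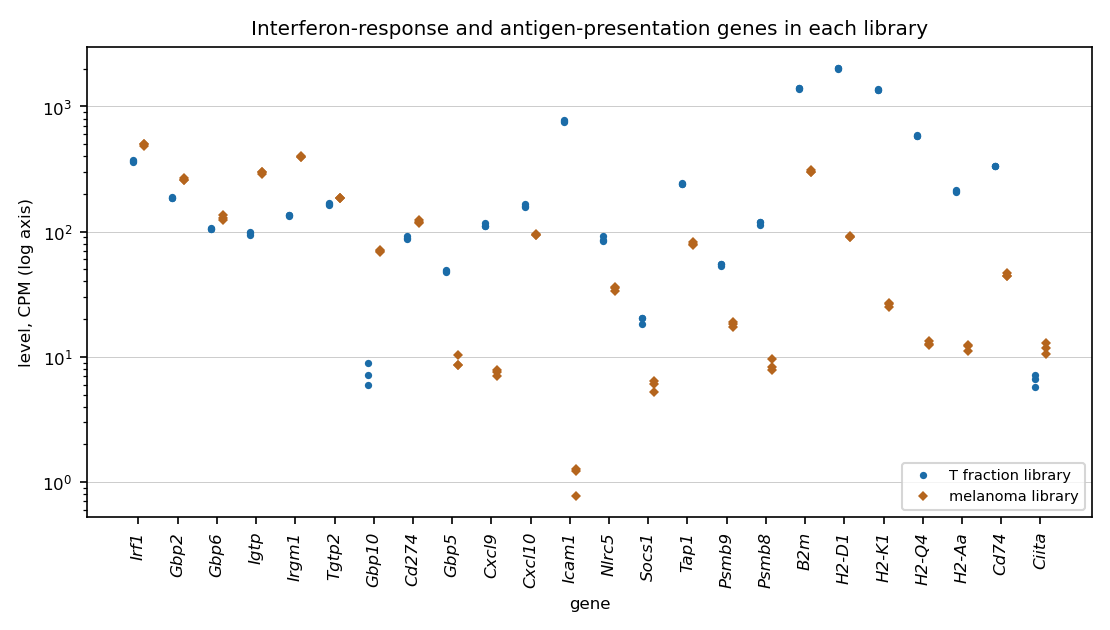
Level (CPM, log axis) of 24 interferon-response and antigen-presentation genes in each of the 3 T fraction libraries (circles) and 3 melanoma libraries (diamonds). From Irf1 to Cd274 the melanoma libraries lie above the T fraction in CPM (Tgtp2 turns direction with TMM scaling), from Gbp5 to Cd74 the T fraction lies above, and Ciita is again above in melanoma.

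NF-kB and stress genes were higher in the T fraction. All 22 NF-kB and TNF response genes passed, with a median of 6.34. Tnfaip3, a feedback inhibitor of the pathway, was 1059, 1064 and 1050 CPM in the T fraction libraries and 5.88, 5.73 and 5.12 CPM in the melanoma libraries (log2 fold change 7.85, SE 0.0321, adjusted p = 4.39e-41). Il6 was 349, 366 and 361 CPM in the T fraction libraries and 0.141, 0.215 and 0.264 CPM in the melanoma libraries (log2 fold change 11.01, SE 0.0664). Sele, the endothelial selectin that captures leukocytes, was 106, 109 and 106 CPM in the T fraction libraries and 0.0470, 0 and 0 CPM in the melanoma libraries, a ratio of 6797 (95% Clopper-Pearson interval 1219 to 268511). Sele is known as an endothelial gene, the endothelial list was higher in the same libraries, and its part in the NF-kB list was not tested. Of 24 immediate early and heat shock genes 20 were higher, with a median of 3.24. Junb, an AP-1 subunit, was 1310, 1339 and 1337 CPM in the T fraction libraries and 84.0, 77.5 and 82.4 CPM in the melanoma libraries (log2 fold change 4.32, SE 0.0226). Egr1, an immediate early factor, was 389 ± 11.7 and 38.7 ± 0.688 CPM. Hspa1a, an inducible chaperone with a near-identical copy, was 544, 544 and 558 CPM in the T fraction libraries and 0.940, 0.775 and 0.686 CPM in the melanoma libraries (log2 fold change 9.69, SE 0.0483). These genes were higher in all 3 T fraction libraries. Jun was not called (926 ± 4.80 and 1021 ± 8.11 CPM), with a log2 fold change of 0.14 under TMM and -0.14 under library totals. Hsp90aa1 was the lower member, at 505, 506 and 505 CPM in the T fraction libraries and 2225, 2245 and 2222 CPM in the melanoma libraries (log2 fold change -1.86, SE 0.0157).

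Most glycolysis genes were lower in the T fraction. Of 18 glycolysis genes 12 were lower and 2 higher, with a median of -1.999. Gapdh, a dehydrogenase of the pathway, was 828, 824 and 818 CPM in the T fraction libraries and 8402, 8270 and 8347 CPM in the melanoma libraries (log2 fold change -3.05, SE 0.0146, adjusted p = 4.21e-38). Eno1, the enolase, was 359.6, 354 and 353 CPM in the T fraction libraries and 5724, 5740 and 5828 CPM in the melanoma libraries (log2 fold change -3.73, SE 0.0163). Ldhb, a lactate dehydrogenase subunit, was 8.71, 10.5 and 9.16 CPM in the T fraction libraries and 552, 535 and 555 CPM in the melanoma libraries (log2 fold change -5.57, SE 0.0380). The fractions were far apart for all 3 enzymes. Tpi1 and Hk2 were 239 ± 6.73 and 71.1 ± 2.88 CPM in the T fraction against 2223 ± 12.4 and 569 ± 5.33 CPM in melanoma. The carriers on the list went the other way. Slc2a1, the glucose carrier, was 281, 280.2 and 273 CPM in the T fraction libraries and 156, 161 and 159 CPM in the melanoma libraries (log2 fold change 1.10, SE 0.0223, adjusted p = 5.07e-05). Slc16a3, the lactate carrier, was 138 ± 3.57 and 68.8 ± 1.42 CPM. Both calls were lost with library totals (0.81 and 1.00), and that of Slc2a1 also without the filter on low counts (1.02).

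Cholesterol synthesis was lower in 19 of 21 genes and higher in none, with a median of -1.78. Lss, which closes the sterol ring, was 9.12, 8.93 and 8.65 CPM in the T fraction libraries and 165, 171 and 173 CPM in the melanoma libraries (log2 fold change -3.96, SE 0.0449). Sqle was 31.3 ± 0.731 and 292 ± 1.17 CPM (log2 fold change -2.94, SE 0.0295). Nuclear genes of oxidative phosphorylation were lower in 18 of 32 cases and higher in none, where 18.0% of all genes were lower. The median of -1.09 lay close to the 2-fold limit, and the count depended on the scaling. It was 15 with median-ratio size factors and 27 with library totals. Atp5f1b, a subunit of the ATP synthase, was 662, 669 and 651 CPM in the T fraction libraries and 2196, 2194 and 2211 CPM in the melanoma libraries (log2 fold change -1.45, SE 0.0156). Ndufa4, a subunit of the electron transport chain, was 29.6 ± 1.37 and 317 ± 2.02 CPM (log2 fold change -3.13, SE 0.0305). Of 12 genes encoded in the mitochondrion itself 4 were higher beyond 2-fold (3 with library totals) and none lower, a share near the 28.1% of all genes tested. The mitochondrial gene mt-Co1 was 12823, 12458 and 12841 CPM in the T fraction libraries and 5677, 5722 and 5485 CPM in the melanoma libraries (log2 fold change 1.46, SE 0.0160). The share of mitochondrial transcripts in all counts was higher in the same libraries, as given above.

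Most proliferation genes were not called beyond 2-fold. Of 32 mitosis and replication genes 6 were lower beyond 2-fold and none higher, with a median of -0.64. The count lower is near the 18.0% of all genes tested, and it was 11 with library totals (median -0.92). Without the 2-fold limit 28 of the 32 were lower by the quasi-likelihood test, where 42.3% of all genes were. Mki67, a marker of cycling cells, was 159, 157 and 161 CPM in the T fraction libraries and 232, 229 and 233 CPM in the melanoma libraries (-0.25, adjusted p = 1). Mcm2, a subunit of the replicative helicase, was 63.0, 62.4 and 63.8 CPM in the T fraction libraries and 302, 307 and 319.6 CPM in the melanoma libraries (log2 fold change -2.01, SE 0.0276). Rrm2, a subunit of ribonucleotide reductase, was 56.3 ± 1.93 and 216 ± 1.13 CPM (log2 fold change -1.66, SE 0.0281). Pcna, the sliding clamp of replication, stood near 0 on the log2 scale and changed direction, at 0.02 with TMM and -0.26 with library totals. Of 30 cytosolic ribosomal protein genes 1 was called (2 with library totals), Rpl3 at 354 ± 4.27 and 1039 ± 14.8 CPM (log2 fold change -1.27, SE 0.0178), and the median was 0.33. Hypoxia genes were split, with 7 of 17 higher and 7 lower (6 and 8 with library totals). Of all genes tested 28.1% were higher and 18.0% lower. Epas1, the hypoxia factor of endothelium, was 960.3, 975 and 980.3 CPM in the T fraction libraries and 20.4, 18.7 and 18.8 CPM in the melanoma libraries (log2 fold change 5.94, SE 0.0271). Car9, a carbonic anhydrase of hypoxic tumor cells, was 1.92, 2.09 and 2.45 CPM in the T fraction libraries and 115, 110.5 and 113 CPM in the melanoma libraries (log2 fold change -5.44, SE 0.0683).

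Calcium genes were listed because the melanoma cells carried a calcium reporter. Of 32 tested, 9 were higher in the T fraction beyond 2-fold, 1 was lower (2 with library totals) and 22 were not called, with a median of 0.79. The share higher is that of all genes tested (28.1%). Orai1, the pore of store-operated entry, was 68.8, 65.4 and 65.3 CPM in the T fraction libraries and 8.37, 9.18 and 8.81 CPM in the melanoma libraries (log2 fold change 3.20, SE 0.0567, adjusted p = 2.26e-24). Stim1, the sensor that opens it, was not called (91.8 ± 1.78 and 65.2 ± 2.46 CPM). Itpr3, a release channel of the endoplasmic reticulum, was 117, 119 and 119 CPM in the T fraction libraries and 6.72, 6.98 and 5.75 CPM in the melanoma libraries (log2 fold change 4.46, SE 0.0504). Both channels were higher in every T fraction library. The export pump Atp2b4 was 162 ± 2.94 and 0.965 ± 0.187 CPM. Vdac1, a channel of the outer mitochondrial membrane, was the lower member (137 ± 4.33 and 629 ± 6.71 CPM, log2 fold change -1.91, SE 0.0218).

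**Figure D4:**
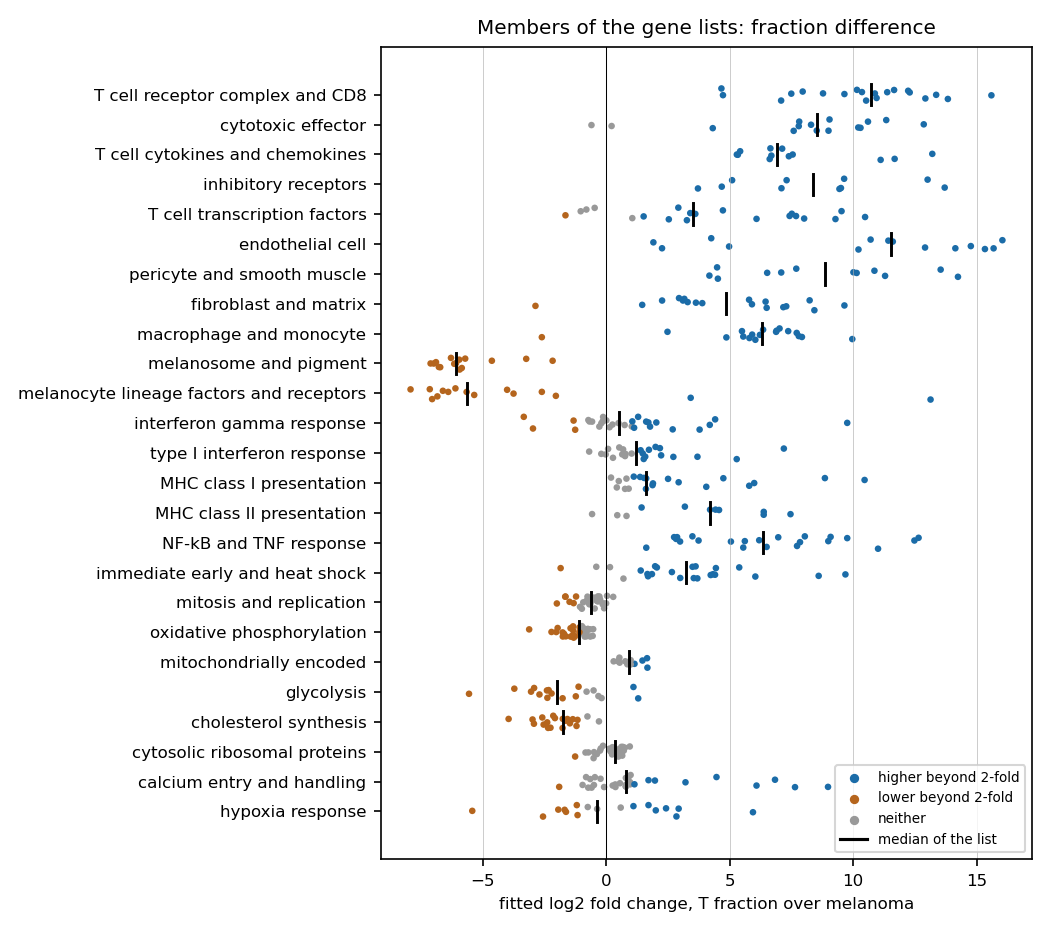
Fitted log2 fold change (T fraction over melanoma) of every tested member of 25 gene lists, coloured by the 2-fold call, with a bar at the median of each list. T cell, vessel and NF-kB lists lie to the right of 0, pigment, glycolysis and cholesterol lists to the left, and the interferon gamma list spans 0. The fitted value of a gene with no count in a fraction depends on the prior count.

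Ligands and their receptors were mostly higher in the same fraction. Of all single genes tested, 28.1% were higher in the T fraction beyond 2-fold, which is a share of genes and not of pairs. Some genes occur in several pairs, so the pairs are not independent. In 30 of 37 pairs both genes were higher by that call, so the bead fraction held RNA for both partners. Among these were Cxcl9 with Cxcr3, Ifng with Ifngr1 (236 ± 1.81 and 27.8 ± 0.710 CPM) and Ifngr2 (87.0 ± 0.584 and 48.3 ± 0.787 CPM), Dll4 (796 ± 10.2 and 0.252 ± 0.0669 CPM) with Notch3, and Pdgfb (264 ± 5.52 and 0.359 ± 0.194 CPM) with Pdgfrb (336 ± 5.76 and 3.00 ± 0.0996 CPM). Fas, the death receptor that Fasl engages, was 12.3, 10.5 and 13.4 CPM in the T fraction libraries and 0.0470, 0.172 and 0.0528 CPM in the melanoma libraries, so its RNA was nearly absent from the melanoma libraries. Vegfa, the main growth factor of endothelium, was 51.3, 49.2 and 46.0 CPM in the T fraction libraries and 189.9, 193 and 197 CPM in the melanoma libraries (log2 fold change -1.69, SE 0.0318, adjusted p = 2.61e-18), whereas its receptors Kdr and Flt1 were higher in the T fraction. In 4 pairs the ligand was higher in the T fraction and the receptor in melanoma: Hgf with Met, Spp1 with Cd44, Cd47 with Sirpa, and Vcam1 with Itga4. The call of Spp1, a secreted matrix ligand, was lost with library totals (0.81), no filter on low counts (1.02), all 12 libraries in the fit (1.06), and without melanoma replicate 1 or 3 (1.06). The call of Ifngr2 was lost with library totals (0.85) and without the filter (1.06). Hgf, the ligand of Met, was 0.881, 0.678 and 0.839 CPM in the T fraction libraries and 0, 0 and 0.0528 CPM in the melanoma libraries, a ratio of 50.8 (95% Clopper-Pearson interval 8.63 to 2052). The ligand was thus below 1 CPM in all 6 libraries compared, while Met was high in melanoma. Sirpa, a receptor that restrains phagocytosis, was 47.2, 47.3 and 45.4 CPM in the T fraction libraries and 127, 126 and 125 CPM in the melanoma libraries (log2 fold change -1.15, SE 0.0315), and DESeq2 did not call it (-1.09). Its ligand Cd47 was 279 ± 7.50 and 41.6 ± 0.650 CPM (log2 fold change 3.03, SE 0.0287). Cd274 was not called while its receptor Pdcd1 was higher in the T fraction.

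**Figure D5:**
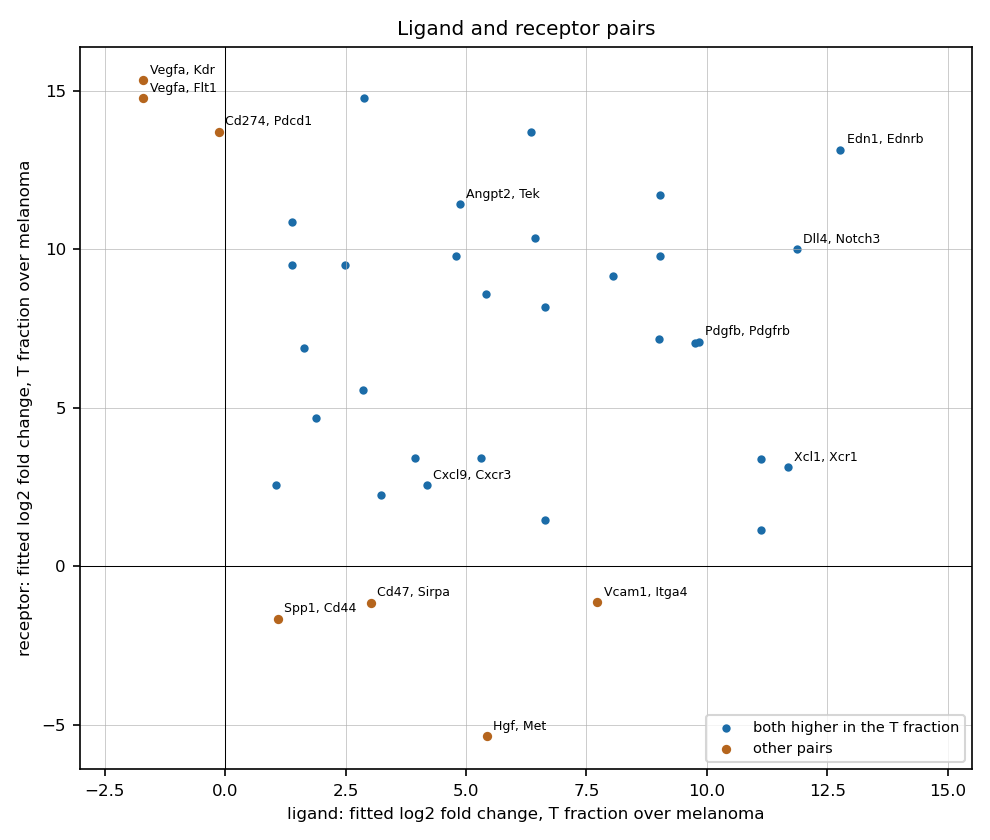
Fitted log2 fold change (T fraction over melanoma) of the receptor (vertical) against that of its ligand (horizontal) for the 37 pairs. The 30 pairs in the upper right are higher in the T fraction for both genes; the labelled exceptions include Hgf and Met at the bottom and Vegfa with Kdr and Flt1 at the upper left. Values of genes with 0 to 3 melanoma counts depend on the prior count.

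The 12 genes with the largest fitted differences on the T fraction side, by the rule given under processing, held several endothelial genes and 1 T cell gene, Trbc2. Emcn, an endothelial sialomucin, was 395, 395 and 385 CPM in the T fraction libraries and 0 CPM in all 3 melanoma libraries, at least 8291-fold higher. Inhbb, an activin subunit, was 1216, 1203 and 1208 CPM in the T fraction libraries and 0.0470, 0 and 0 CPM in the melanoma libraries, a ratio of 76734 (95% Clopper-Pearson interval 13772 to 3030870). Kdr, the main VEGF receptor, was 1313, 1315 and 1313 CPM in the T fraction libraries and 0.0940, 0 and 0 CPM in the melanoma libraries, a ratio of 41664 (95% Clopper-Pearson interval 11534 to 344043). All 3 were high in each T fraction library and at or near 0 in each melanoma library. The others were Cyyr1, Cldn5, Col13a1, Bcl6b, Flt1, Erg, Myct1 and Sox17, of which all but Flt1 had no count in melanoma and levels of 148 ± 3.87 (Sox17) to 321 ± 9.27 CPM (Cyyr1) in the T fraction.

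The 12 genes at the other end were high in melanoma and at or near 0 in the T fraction. Clvs1, a lipid-binding protein of vesicle traffic, was 0 CPM in all 3 T fraction libraries and 16.7, 14.6 and 14.6 CPM in the melanoma libraries, at least 268-fold lower in the T fraction. Gsta2, a glutathione transferase, was 0.155, 0.113 and 0 CPM in the T fraction libraries and 41.1, 38.8 and 41.8 CPM in the melanoma libraries (log2 fold change -8.36, SE 0.178). Cited1, a transcriptional cofactor of pigment cells, was 0.259, 0.0565 and 0.323 CPM in the T fraction libraries and 72.6, 74.1 and 76.1 CPM in the melanoma libraries (log2 fold change -8.14, SE 0.127). None of the 3 overlapped between the fractions. The others were Ott, Pnma2, Ankfn1, Fndc3c1, Tspan10, Eif2c5l, Dock3, Luzp4 and the potassium channel Kcnj13 (0.145 ± 0.164 and 34.1 ± 0.763 CPM). Ott and Pnma2 had no count in the T fraction and 7.46 ± 0.548 and 6.30 ± 0.428 CPM in melanoma, at least 129.9-fold and 111-fold lower. Ott belongs to a family of repeated copies, so its count is uncertain.

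The difference between fractions was also compared with that in the B16-F10-OVA label. The interaction of fraction and label was fitted on all 12 libraries, and a positive value means that the T fraction exceeded melanoma by more in the B16-F10 label than in the OVA label. Of 18562 genes tested, the quasi-likelihood test called 69.0% (41.3% higher, 27.7% lower), and glmTreat called 26.8% beyond 2-fold, 4338 (23.4%) higher and 632 (3.4%) lower. The interaction was higher for 20 of 20 genes of the T cell receptor list and for 13 of 14 endothelial genes. The melanoma libraries of the OVA label held more of this RNA. Pecam1, an endothelial adhesion molecule, was 659 ± 4.67 CPM there against 1.70 ± 0.277 CPM in the B16-F10 label, and Cd3e was 9.89 ± 0.777 CPM there against 0. Of the pigment list 2 genes were higher and 3 lower, and Pmel (interaction -0.74, SE 0.0452) and Dct (-0.02, SE 0.0392) were not called. On the interferon gamma list 22 genes were lower and 3 higher. Gbp2 was 1962 ± 11.6 CPM in the OVA T fraction and 87.5 ± 0.458 CPM in the OVA melanoma libraries, against 186 ± 1.57 and 262 ± 4.57 CPM here (interaction -4.86, SE 0.0253). Irf1 was 1433 ± 11.4 and 172 ± 2.21 CPM, against 367 ± 8.43 and 496 ± 10.2 CPM (interaction -3.38, SE 0.0258). Ifng itself was 315 ± 7.76 CPM in the OVA T fraction and 12.8 ± 0.790 CPM here. Of the interferon gamma list, Icam1 (interaction 7.62, SE 0.0562), Gbp9 (1.75, SE 0.0679) and Irf8 (1.41, SE 0.0412) were the 3 higher genes. The ovalbumin construct is not a row of the gene table used here, so the tumor labels were not checked from the counts.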

How the data were processed

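Bulk poly-A RNA libraries from tumor cell fractions were compared. The authors deposited whole-number read counts per gene in 1 table of 77175 rows, 21805 of them without a gene symbol, and no count column belonged to other samples. The submitters' processing notes name HISAT2 2.0.5, featureCounts 1.6.0 and the build GRCm39. The strand setting is not given in the sources used here, so overlapping and antisense genes cannot be told apart.

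Groups came from the labels. The 3 T fraction and 3 melanoma libraries of the B16-F10 label were fitted with edgeR 4.0.16 (R 4.3.3; filterByExpr, TMM, glmQLFit) across all genes. Calls used Benjamini-Hochberg adjusted p at 0.05 from glmQLFTest and, beyond 2-fold, from glmTreat. Means are given ± SD over 3 libraries. The interaction with the OVA label used all 12 libraries, so it shares the 6 libraries above with the main comparison. Intervals at 95% and bounds against 3 counts over a group cover counting error only. Alternatives used DESeq2 1.42.0, limma 3.58.1, other scalings, other filters and left-out libraries. On simulated data with 200 changed genes among 17099, 200 were recovered, 198 of them beyond 2-fold. The changed genes were drawn only from well-counted genes, and all genes were given the same spread. Recovery of genes with low counts, or with a spread that varies by gene, was not tested. Of the unchanged genes 11 were called, 0 of them beyond 2-fold. The real comparison called 87.7% of genes by the quasi-likelihood test, and recovery at such a share was not tested.

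Of 625 symbols in the gene lists 622 were found, and 37 of 38 listed ligand and receptor pairs. The members and lists were chosen with earlier results of these data known. Genes named outside the lists and pairs are the 12 highest and 12 lowest fold changes among genes called beyond 2-fold, with at least 5 CPM in the higher fraction, no overlap and no predicted, clone or pseudogene name, plus the 5 highest and 5 lowest of the interaction. Promoter windows came from RefSeq (GRCm38.p6). A few genes are not reported here.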

Additional observations from a re-analysis of the deposited data

Results flagged for a closer look

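The difference between the fractions was itself different in the tumors labelled B16-F10-OVA, by edgeR's glmTreat test of the interaction against a 2-fold change. The test called 4338 genes higher (23.4%) and 632 lower (3.4%), where higher means that the T fraction exceeded melanoma by more in the B16-F10 label. Of 201 genes named in the report and tested, 114 were higher and 34 lower. The named genes include the extremes of the main comparison and of the interaction itself, and lists chosen with earlier results known. Their shares can therefore not be compared with those of all genes. On the interferon gamma list 22 genes were lower and 3 higher.

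The highest of the interaction by the rule for named genes were a lymphoid chemokine and 4 hair keratins, whose RNA lay in the T fraction in this label and in melanoma in the OVA label. Ccl21a was 25.9 ± 0.236 CPM in the T fraction and 0 ± 0 CPM in melanoma, and 0 ± 0 and 3.49 ± 0.474 CPM in the OVA label (adjusted p = 3.36e-19). Its copies on the genome may share reads. Krt71 was 1.83 ± 0.264 and 0 ± 0 CPM, and 0.0335 ± 0.0301 and 20.4 ± 0.443 CPM in the OVA label (adjusted p = 5.08e-18). Krt27 (adjusted p = 7.28e-13), Krt25 (adjusted p = 2.05e-16) and Krt85 (adjusted p = 4.05e-14) had 0.887 ± 0.182, 1.20 ± 0.0865 and 1.22 ± 0.270 CPM in the T fraction and none in melanoma here, against 6.75 ± 1.10, 12.6 ± 0.302 and 7.18 ± 1.12 CPM in the OVA melanoma libraries.

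The lowest held 3 interferon-induced genes. Apol6 was 0.942 ± 0.467 CPM in the T fraction and 21.2 ± 1.10 CPM in melanoma, and 7.32 ± 0.475 and 0.519 ± 0.0921 CPM in the OVA label (adjusted p = 7.14e-20). Gbp10 was 7.39 ± 1.49 and 69.9 ± 1.27 CPM here, and 55.0 ± 3.52 and 2.61 ± 0.425 CPM there (adjusted p = 1.09e-25). Gbp11 was 0.851 ± 0.251 and 10.7 ± 0.343 CPM here, and 3.92 ± 0.643 and 0.372 ± 0.140 CPM there (adjusted p = 3.54e-16). Clvs1 was 15.3 ± 1.23 CPM in melanoma here and 0.102 ± 0.0202 CPM in OVA melanoma (adjusted p = 9.22e-06). Mrap, an accessory protein of melanocortin receptors, was 5.46 ± 0.465 and 0.0234 ± 0.0209 CPM in the same groups (adjusted p = 0.00503).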

How the results depend on the processing

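The counts over all genes tested stayed within 1.5 times their values in the report under each alternative that was run. Counts within lists did not all do so with library totals: lower members beyond 2-fold went from 6 to 11 for mitosis and replication, from 1 to 3 for T cell transcription factors and from 1 to 2 for the lymphatic, ribosomal and calcium lists. Higher members of glycolysis went from 2 to 0. Beyond 2-fold, 4340 (library totals) to 6542 (no filter on low counts) genes were higher in the T fraction and 2363 (DESeq2) to 4158 (library totals) lower, and leaving out 1 library at a time gave 4861 to 5061 and 3107 to 3194. For calls of any size, library totals gave 6602 higher and 8535 lower, so the larger side changed with the scaling. Leaving out 1 library gave 7755 to 7959 higher and 7200 to 7327 lower. For the interaction, left-out libraries gave 4292 to 4420 higher and 613 to 657 lower beyond 2-fold, and 7460 to 7721 and 5019 to 5215 of any size. Where a group was left with 2 libraries, its spread was pooled with the other groups. Pairs with both genes higher numbered 27 to 30, and the share of lower genes with CATGTG ran from 10.1% to 11.9%.

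The replicate numbers are shared by the groups, but the deviations of same-numbered libraries did not go together (correlations across 11472 genes of -0.040, 0.033 and -0.038). These correlations cannot decide whether same-numbered libraries came from the same mouse. The spread between replicates was small, the fractions hold different cells, and the labels do not give the mouse. With the replicate block, 4770 genes were higher and 3048 lower beyond 2-fold, and the interaction gave 4319 and 630.

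Of the genes named in the report, 5 changed sign with library totals: Jun (-0.14), Lamp1 (-0.0748), Pcna (-0.26), Pdia3 (-0.10) and Tgtp2 (-0.16). Pcna also did so without the filter (-0.0516), with all 12 libraries in the fit (-0.0136) and without melanoma replicate 3, and over left-out libraries it ran from -0.0050 to 0.0424. None of these 5 genes was called beyond 2-fold in the report. By the quasi-likelihood test, however, all 21 MHC class I genes were called higher, Pdia3 among them. Of the 15 cytotoxic genes tested 14 were called higher by it, Lamp1 among them. The sign of a small difference called by that test can therefore depend on the scaling. The calls that were lost or gained under an alternative (Cxcl10, Spp1, Ifngr2, Slc2a1, Slc16a3, Itga4, Sirpa, Id2 and Prox1) are given beside the genes. The causes of these changes were not tested beyond the scaling itself. Depth limits the genes at 0 to 3 counts in a fraction, for which only bounds or ratios with wide intervals are given.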
